A study of Homo sapiens with 2 samples.

Results

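ATF4, a transcription factor of the amino acid stress response, and 9 of its known partners and targets were examined in heat-shocked HEK293T cells. These 10 genes (ATF4, ATF5, DDIT3, PHGDH, PSAT1, ASNS, SESN2, DDIT4, TRIB3 and CHAC1) were matched by symbol to the Ensembl identifiers of the tables, and all were found among the 57736 genes listed. HEK293T cells derive from human embryonic kidney and express the large T antigen of SV40, and their genotype is given as wild type. The cells were kept for 20 min at 43 °C and then for 6 h at 37 °C, and poly(A)+ RNA was sequenced with 50 bp reads. These times are those of the labels. The text of the study gives a longer heat shock. It gives the same 6 h of recovery for part of its RNA-Seq, and a shorter recovery for the rest. There was 1 group with 2 libraries, replicate 1 and replicate 2, from cells lysed separately. Any p-value sets the difference between these libraries, which may be technical, against counting noise or an assumed variation. It does not measure a spread between replicates. Untreated cells are not analysed here, and no change with heat shock was measured.

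When amino acids run short, or when proteins misfold, kinases phosphorylate the initiation factor eIF2. General translation then slows, while the ATF4 mRNA, which carries small reading frames before its coding sequence, is translated more. The ATF4 protein is a basic leucine zipper factor that pairs with C/EBP and other zipper proteins and binds a composite C/EBP-ATF response element. Its targets make and import amino acids, load tRNAs, restrain growth signalling and, if stress lasts, feed back on ATF4 or favour cell death. An mRNA level therefore does not give the level of the ATF4 protein.

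Replicate 1 held 22529828 expected counts and replicate 2 held 26890199. A gene with a count of 0 could still have had 3 counts, or 0.133 and 0.112 CPM (counts scaled to library size), from counting error only. Of 10 genes fixed as HEK293T markers, 8 were matched and all 8 were detected, with VIM, an intermediate filament gene, highest at 684 and 611 TPM. NEFL and LHX1 were not matched. Among the markers fixed for blood, liver, endothelium and mature kidney, PTPRC, CD3E and UMOD were at 0, and PECAM1 was not matched. Not every marker of these cells is reported here, and the part of other cells in the results below was not tested.

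The C/EBP-ATF element was searched first, because it is the DNA sequence that ATF4 dimers are known to bind. The letters TGATGNAA were looked for on both strands in the 1000 bases before the start site of each protein-coding gene (GENCODE starts on GRCh37, the build of the files, taken from 1 reference transcript a gene), a window chosen after the data were seen. Of the 10 genes, 6 had at least 1 match, compared with 2208 of 19391 protein-coding genes (11.4%). These 6 genes had 7 matches, which are shown 5′ to 3′ on the strand of the gene with the matched letters in capitals. Positions count back from the start site, so that -1 is the base just before it. For PHGDH, ASNS, CHAC1 and DDIT3, and for TRIB3 below, this start lies inside the span of the gene, which holds transcripts that start further upstream.
ASNS, position -68, chr7:97501765-97501804, minus strand: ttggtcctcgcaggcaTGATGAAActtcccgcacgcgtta
ASNS, position -886, chr7:97502583-97502622, minus strand: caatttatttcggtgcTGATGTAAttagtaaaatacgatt
CHAC1, position -209, chr15:41245444-41245483, plus strand: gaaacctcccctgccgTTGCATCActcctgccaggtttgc
SESN2, position -296, chr1:28585717-28585756, plus strand: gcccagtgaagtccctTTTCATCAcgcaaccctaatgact
DDIT3, position -306, chr12:57914580-57914619, minus strand: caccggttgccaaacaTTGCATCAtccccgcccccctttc
DDIT4, position -942, chr10:74032720-74032759, plus strand: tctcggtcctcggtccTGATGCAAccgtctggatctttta
PHGDH, position -954, chr1:120253587-120253626, plus strand: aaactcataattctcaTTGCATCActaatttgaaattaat

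The matches in CHAC1, DDIT3 and PHGDH had the same 8 letters, and that in DDIT4 was their reverse complement. The first match of ASNS and those in CHAC1, SESN2 and DDIT3 lay from -68 to -306, and the second of ASNS and those in PHGDH and DDIT4 lay from -886 to -954. ATF4, ATF5, PSAT1 and TRIB3 had no match in this window, which says only that these letters were not found there. In the shorter promoters of RefSeq (250 bases before to 50 after each start, GRCh38.p14, each found at 1 place in GRCh37), ASNS and CHAC1 had a match, beside 4.46% of 27305 genes. The letters GAANNTTC, a pair of the units that heat shock factors bind, were present before the start of ASNS, at -64, and of TRIB3, at -604 and -411. In ASNS they overlapped the match at -68. Of all protein-coding genes, 20.4% had GAANNTTC in the same window. Letter matches describe the sequence and do not show binding in these cells.

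**Figure D1:**
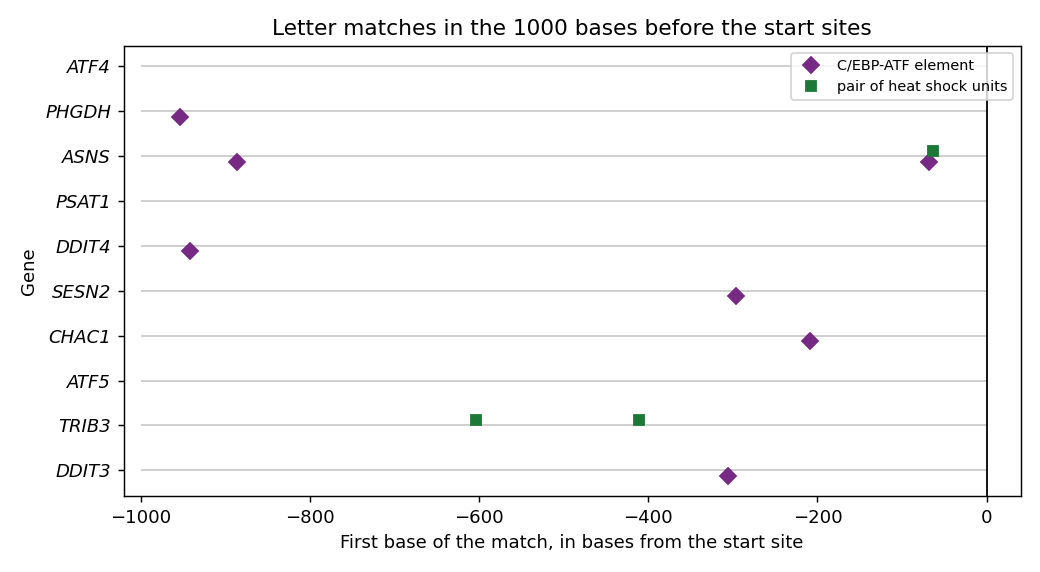
Letter matches in the 1000 bases before the start site of each of the 10 genes, plotted by the distance in bases of the first matched letter from the start site. Diamonds are TGATGNAA on either strand, squares are GAANNTTC; 6 genes have a diamond, and those of ASNS (-68), CHAC1 (-209), SESN2 (-296) and DDIT3 (-306) lie closest to the start.

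Small upstream reading frames were then counted, because the ATF4 mRNA is known to be controlled through them. In the reference transcript used for each gene, 5 of the 10 genes had at least 1 ATG before the coding start, beside 41.3% of 12289 detected protein-coding genes. ATF4 had 3 upstream ATGs, which opened frames of 1, 3 and 59 codons, and the frame of 59 codons overlapped the coding start out of frame. ATF5 had 2, with frames of 3 and 59 codons, the latter again overlapping the coding start. These lengths of 3 and 59 codons were therefore shared by the related factors. DDIT3 had 3, with frames of 34, 31 and 73 codons, of which the last overlapped the coding start. Such an overlapping frame was present in 3 of the 10 genes and in 12.8% of detected protein-coding genes. TRIB3 had frames of 77 and 14 codons and SESN2 had 1 of 19 codons, all ending before the coding start. The enzymes PHGDH, PSAT1 and ASNS, and also DDIT4 and CHAC1, had none.

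The question for the levels was how strongly each gene was expressed after recovery. Levels are given as TPM (read counts scaled to transcript length and to library size), and a gene that reached a TPM of 1 in each library was called detected. All 10 genes were detected, beside 63.8% of protein-coding genes in the tables. Their levels ranged over a factor of 267 in replicate 1 and 212 in replicate 2, from DDIT3 to ATF4. Together they held 0.196% ± 0.014 of TPM (SD, n = 2), and ATF4 alone made up 53.7% and 52.6% of that amount in the 2 libraries. The median of their mean TPM was 98.9, beside 18.6 for the 12367 detected protein-coding genes.

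**Figure D2:**
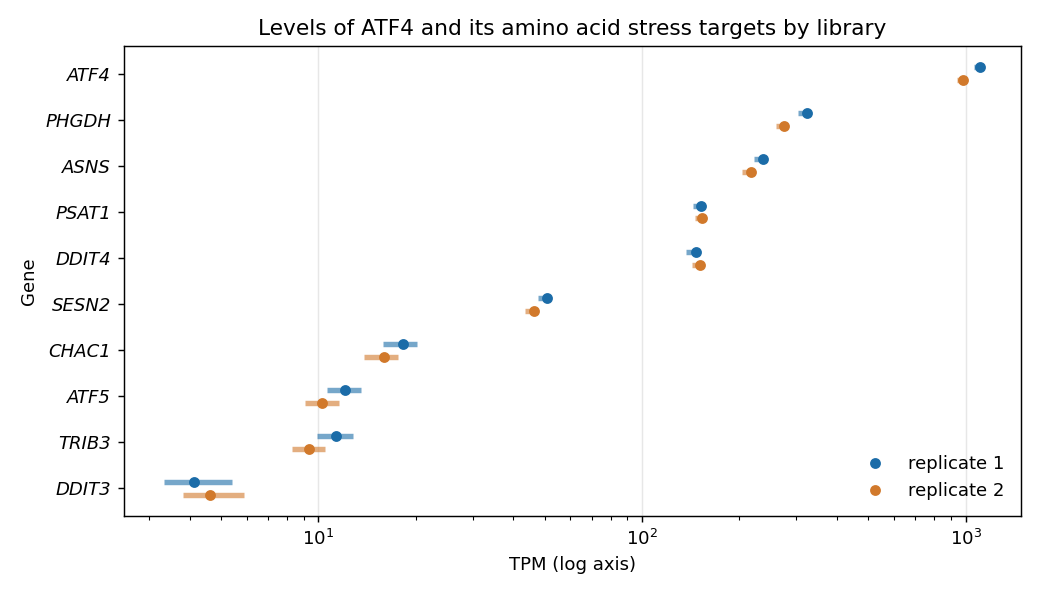
TPM of each gene in replicate 1 (blue) and replicate 2 (orange) on a log axis. Points are the deposited TPM and bars are the deposited 95% credibility bounds; ATF4 lies near 1000 TPM, the serine and asparagine enzymes and DDIT4 between 147 and 323, and DDIT3 lowest at 4.14 and 4.64.

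Among the transcription factors, ATF4 (ENSG00000128272; GRCh37 chromosome 22, 39915700 to 39918688, plus strand) was at 1106 TPM in replicate 1 and 982 in replicate 2. It ranked 80 among the 12367 detected protein-coding genes, with a mean of 1044 ± 87.7 TPM (SD, n = 2). Its relative ATF5 (ENSG00000169136; chromosome 19, 50431959 to 50437192, plus strand), a zipper factor linked to the mitochondrial stress response, was at 12.1 and 10.2 TPM and ranked 7924. DDIT3 (ENSG00000175197; chromosome 12, 57910371 to 57915520, minus strand), which encodes the pro-apoptotic factor CHOP, was at 4.14 and 4.64 TPM. Only 66.2 and 84.1 expected counts lay behind these values, the fewest of the 10 genes. DDIT3 was thus at percentile 15.3 of detected protein-coding genes, while ATF4 was at percentile 99.4.

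The amino acid synthesis enzymes were all high. PHGDH (ENSG00000092621; chromosome 1, 120191034 to 120286841, plus strand), which makes the first committed step from glycolysis to serine, was at 323 and 275 TPM, a mean of 299 ± 34.5 (SD, n = 2). PSAT1 (ENSG00000135069; chromosome 9, 80912041 to 80945009, plus strand), the aminotransferase that follows it, was at 152 and 153 TPM. The libraries differed least for this gene, with a coefficient of variation of 0.733%. ASNS (ENSG00000070669; chromosome 7, 97480989 to 97501854, minus strand), which makes asparagine from aspartate and glutamine, was at 236 and 218 TPM. Their percentiles among detected protein-coding genes were 97.1 for PHGDH, 96.1 for ASNS and 93.5 for PSAT1. PHGDH was above ASNS and ASNS above PSAT1 in both libraries, with no overlap of their values.

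The genes that restrain growth signalling differed in level. DDIT4 (ENSG00000168209; chromosome 10, 74033678 to 74035794, plus strand), whose protein REDD1 lowers mTORC1 activity through the TSC complex, was at 147 and 151 TPM. SESN2 (ENSG00000130766; chromosome 1, 28586029 to 28609002, plus strand), a leucine sensor that acts on mTORC1 through GATOR2, was at 50.95 and 46.48 TPM. DDIT4 was thus 2.88 times as high as SESN2 in replicate 1 and 3.26 times in replicate 2. SESN2 was at percentile 76.2 of detected protein-coding genes and DDIT4 at 93.3.

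By mean TPM, the feedback and glutathione genes lay below the median of 18.6 for detected protein-coding genes, CHAC1 only slightly. CHAC1 (ENSG00000128965; chromosome 15, 41245160 to 41248710, plus strand), an enzyme that breaks down glutathione, was at 18.3 and 15.9 TPM. TRIB3 (ENSG00000101255; chromosome 20, 343479 to 378203, plus strand), a pseudokinase that dampens ATF4 activity, was at 11.4 and 9.33 TPM. Their mean levels of 17.1 ± 1.65 and 10.35 ± 1.44 TPM (SD, n = 2) lay at percentiles 47.6 and 33.8. Between 424 and 478 expected counts lay behind each value.

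The order of the means was ATF4, PHGDH, ASNS, PSAT1, DDIT4, SESN2, CHAC1, ATF5, TRIB3 and DDIT3, and it was the same in each library. ATF5 and TRIB3, neighbours in this order, did not differ beyond their spread, since their library values overlapped. PSAT1 and DDIT4 differed by factors of 1.03 and 1.01 within the libraries. Their library values did not overlap, but their credibility bounds did in both libraries. All 7 other neighbouring pairs were apart in library values and in bounds. The smallest of these gaps was between PHGDH and ASNS, with factors of 1.37 and 1.26.

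The libraries were next compared with each other, to see how far the level of each gene depended on the library. The largest coefficient of variation of TPM was 13.9%, for TRIB3, and the median over the 10 genes was 8.23%, beside 10.2% for detected protein-coding genes. Counts were then scaled by TMM factors from edgeR, and a two-sided exact binomial test, with p-values adjusted by Benjamini-Hochberg over 19714 genes, asked whether the libraries differed beyond counting noise. This test compares 2 libraries and not conditions. It called 8 of the 10 genes, all higher in replicate 1, and 0 in the other direction. Over all genes tested, 41.6% were called, 19.9% as higher in replicate 1 and 21.7% as higher in replicate 2. Set as replicate 2 over replicate 1, the log2 ratio had a median of -0.24 for the 10 genes and 0.02 for all genes tested.

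The differences were small. ATF4, with 27796 and 28105 counts, had a log2 ratio of -0.27 with an adjusted p of 4.10e-103 by the exact binomial test. Replicate 1 was thus 1.20-fold higher. CHAC1, with 478 and 443 counts, had the largest ratio, -0.39 (adjusted p = 0.000179), followed by PHGDH at -0.37 (adjusted p = 2.28e-72). ASNS, SESN2, TRIB3 and ATF5 were also called, with log2 ratios from -0.21 to -0.30. PSAT1 had a log2 ratio of -0.08 (adjusted p = 0.00566), although its TPM was slightly higher in replicate 2, so its direction depends on the scale. DDIT4, at -0.06, did not pass the threshold (adjusted p = 0.0935), and neither did DDIT3, at 0.06 (adjusted p = 0.949). Scaling moved 3 of these calls: with library totals, ATF5 and PSAT1 no longer passed the exact binomial test (adjusted p = 0.0626 and 0.0853), and with DESeq2 size factors DDIT4 did (adjusted p = 0.0375). No gene of the 10 reached 2-fold. The exact test of edgeR was also run with a biological coefficient of variation of 0.1, which is an assumed value. It called 0 of the 10 genes, beside 7.69% of all genes. By this test 0 had an unadjusted p under 0.05, beside 16.2% of all genes. The common value that edgeR estimated from the 2 libraries was larger, 0.202, and was not used in the test.

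The ratio between the libraries also moved with GC content over all genes. In 10 classes of GC content, the median log2 ratio fell from 0.67 in the lowest class to -0.25 in the highest. Of the 10 genes, 8 had a GC content above the median of detected protein-coding genes, 49.2%. ATF5, TRIB3 and CHAC1, at 61.8%, 62.0% and 62.9%, were in the highest class, and PSAT1 and ASNS, at 43.8% and 44.5%, were in the third and the fourth. With the trend on GC content removed, 5 of the 10 genes were called, beside 26.4% of all genes tested. ASNS then had a log2 ratio of -0.34, PSAT1 -0.24, PHGDH -0.17 and ATF4 -0.10, all with replicate 1 higher. DDIT4 turned to 0.17, with replicate 2 higher (adjusted p = 3.80e-08 by the exact binomial test). The calls of CHAC1, TRIB3, ATF5 and SESN2 were lost, with log2 ratios from -0.15 to -0.02. The median of the 10 genes was then -0.09.

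**Figure D3:**
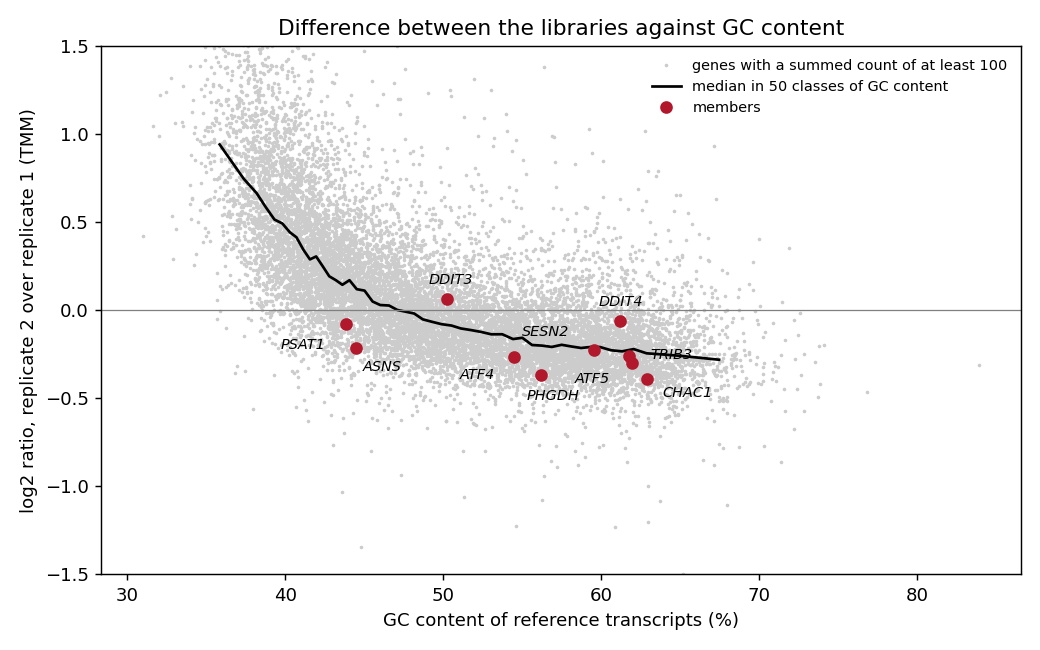
Log2 ratio of replicate 2 over replicate 1 (TMM-scaled counts, vertical axis) against the GC content of the reference transcripts (percent, horizontal axis) for 13544 genes with 100 or more counts in sum, of which 98 lie beyond the plotted range. The black line is the median in 50 classes and red points are the 10 genes; ATF5, SESN2 and TRIB3 lie near the line, ASNS and PSAT1 below it and DDIT4 above it.

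Transcript choice was read from the length of each gene, which the quantifier weights by the abundance of its transcripts. CHAC1 had a weighted length of 1484 bases in replicate 1 and 1388 in replicate 2, a change of -6.46%. TRIB3 went from 2117 to 2238 bases and ATF5 from 1805 to 1898, changes of 5.72% and 5.15%. The median size of such changes over detected protein-coding genes was 3.28%, and those of CHAC1, TRIB3 and ATF5 lay at percentiles 71.0, 65.6 and 62.6. ATF4, PSAT1, ASNS, DDIT4 and DDIT3 each changed by less than 1%, and SESN2, with 1 listed transcript, did not change. PHGDH had 7 listed transcripts and changed by -2.53%. TPM is scaled to these lengths, so these length changes enter the TPM ratios of CHAC1, TRIB3 and ATF5.

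By the quantifier's own measure, the sharing of reads with other genes left little uncertainty in these counts. This measure does not give the share of reads that fit other genes too. The posterior SD, which measures how uncertain the sharing of reads between genes was, was 0 reads for PHGDH, SESN2, CHAC1 and TRIB3. It was at most 1.86 reads for ATF4, ASNS, PSAT1 and DDIT3. It was 28.9 and 13.8 reads for DDIT4, on 4529 and 5284 expected counts, and 5.84 and 6.17 for ATF5, on 387 and 393. The processed ATF4 copies ATF4P1, ATF4P3 and ATF4P4 were listed at 0.12 to 0.35 TPM. ASNSP1 was at 2.5 and 2.08 TPM. ASNSP5 was at 0.52 and 1.84 TPM, from only 1 and 4 expected counts, while ASNSP3, ASNSP4 and ASNSP6 had at most 2. Of 4 PSAT1 copies, only PSAT1P2 had a count, 1 in replicate 1.

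Overlapping genes bear most on DDIT3 and ATF5. MARS1, a methionine tRNA synthetase gene on the opposite strand, shares 355 exon bases with DDIT3 and was at 343 and 289 TPM. MBD6 shares 58 bases and was at 34.5 and 34.9 TPM. NUP62, a nuclear pore gene on the opposite strand of ATF5, shares 565 exon bases and was at 94.3 and 97.8 TPM, and IL4I1, at 0.76 and 0.6 TPM, shares 75. MIR4751 and ENSG00000269179, which also overlap ATF5, were at 0 in both libraries, and MIR616, which overlaps DDIT3, had 0 and 1 counts. Whether counting used strand is not stated in the sources used here, so the levels of DDIT3 and ATF5 are uncertain. ASNS overlaps only 1 listed gene, a processed pseudogene (ENSG00000226744) with no shared exon bases, and the other 7 genes overlap none in the tables.

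A wider list of 71 genes of the same response gave the setting of these levels. Of these, 68 were detected, beside 63.8% of all protein-coding genes listed. Between the libraries, 50 of 69 tested were called, 31 with more in replicate 1 and 19 with more in replicate 2, beside 41.6%, 19.9% and 21.7% of all genes tested. Their median log2 ratio was -0.12, beside 0.02 for all genes tested. With the trend on GC content removed, 36 were called, beside 26.4% of all genes tested, and the median was -0.07. TGATGNAA was present in the RefSeq promoters of 11 of the 54 listed genes that had one, beside 4.46% of all genes. In the 1000 bases before the start it was present in 14 of 71, beside 11.4% of protein-coding genes. The lists changed with the window: the amino acid transporters had a match in 5 of 10 RefSeq promoters but in 1 of 12 of the longer windows, which end at the GENCODE start.

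**Figure D4:**
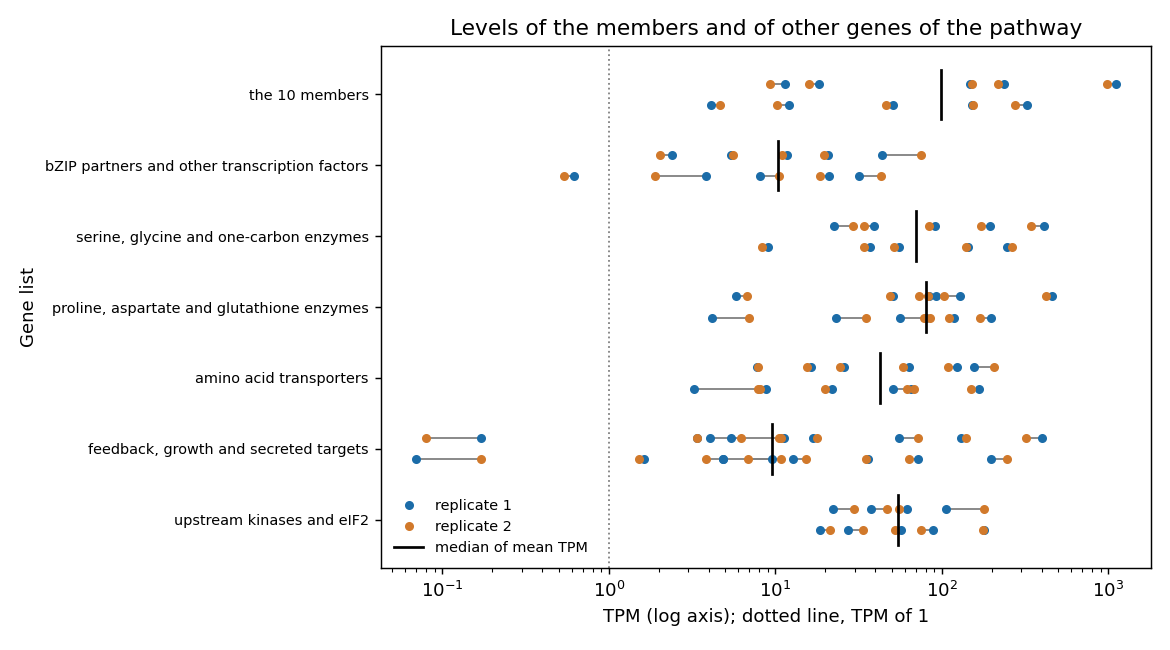
TPM in replicate 1 (blue) and replicate 2 (orange) of the 10 genes and of the 71 other genes of the response, grouped by role, on a log axis. Grey lines join the libraries, black bars are medians of the mean TPM, and the dotted line is a TPM of 1; CEBPD, GDF15 and FGF21 lie below it.

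The possible zipper partners and related factors were mostly low, with a median of 10.4 TPM, and 9 of 10 were detected. NFE2L2, the regulator of antioxidant genes, was highest at 43.6 and 75.1 TPM. ATF3, a stress-induced zipper factor, followed at 31.8 and 43.2, and JDP2 was at 20.7 and 19.7. CEBPB, a known dimer partner of ATF4, was at 20.9 and 18.5 TPM. Its log2 ratio of -0.27 was the largest toward replicate 1 among genes of this list with 100 or more counts in sum. With the trend on GC content removed, this ratio was 0.0016 and CEBPB was no longer called. CEBPD was below the threshold at 0.62 and 0.54. All of them were lower than ATF4 in both libraries. RefSeq promoters of CEBPG, ATF3 and JDP2 held TGATGNAA, of 8 with an entry.

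All 10 enzymes of serine, glycine and one-carbon metabolism were detected, with a median of 70.5 TPM. SHMT2, which turns serine into glycine in mitochondria, was highest at 411 and 342 TPM. MTHFD1, a folate enzyme, was at 194 and 173 TPM. Between the libraries 9 were called, 8 of them higher in replicate 1, and 5 were called with the trend on GC content removed, beside 41.6% and 26.4% of all genes tested. ALDH1L2 had the largest log2 ratio toward replicate 2, 0.26, and SHMT2 the largest toward replicate 1, -0.36. With the trend on GC content removed, these ratios were -0.04 and -0.16, and ALDH1L2 was no longer called.

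All 12 enzymes of proline, aspartate and glutathione metabolism were also detected, with a median of 80.8 TPM. CBS, which joins homocysteine and serine, was at 460 and 426 TPM, above PHGDH in both libraries. The proline enzymes PYCR1 and ALDH18A1 were at 197 and 170 TPM and at 129 and 104. GCLM, a subunit of the enzyme that starts glutathione synthesis, had the lowest mean, at 4.18 and 6.92 TPM, with a log2 ratio of 0.64 that fell to 0.20 with the trend on GC content removed. PYCR1 had the largest log2 ratio toward replicate 1, -0.35. In all, 10 were called, and 7 with the trend removed, beside the same 41.6% and 26.4% of all genes tested.

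The 12 amino acid transporter genes were all detected, with a median of 42.4 TPM. SLC38A2, an importer of small neutral amino acids, had the highest mean, at 155 and 207 TPM, then the glutamine carrier SLC1A5 at 167 and 151, and the leucine carrier SLC7A5 at 124 and 109. SLC7A11, the cystine importer, had the lowest mean, at 3.27 and 8.08 TPM. It had 573 and 1572 expected counts, a GC content of 35.9% and a log2 ratio of 1.17, or 0.24 with the trend on GC content removed. SLC1A5 had the largest log2 ratio toward replicate 1, -0.31. Of these genes, 10 were called, 7 of them higher in replicate 1, where 41.6% and 19.9% of all genes tested were.

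Feedback, growth and secreted targets ranged most widely, and 16 of 18 were detected. EIF4EBP1, which restrains cap-dependent translation, was highest at 397 and 321 TPM, followed by the tRNA exporter XPOT at 197 and 248 and the secreted glycoprotein STC2 at 130 and 140. The stress hormones GDF15 and FGF21 had 2 and 2 and 1 and 4 expected counts, at or near the floor of 3 counts per library. SESN3, a relative of SESN2, was at 4.87 and 10.8 TPM, and its log2 ratio of 1.03 became 0.61 once the trend was removed. BBC3, a pro-apoptotic gene, had the largest log2 ratio toward replicate 1, -0.56. With the trend removed, this ratio was -0.31 and BBC3 was no longer called.

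All 9 upstream genes were detected, with a median of 54.7 TPM. EIF2AK1, the heme-regulated eIF2 kinase HRI, was at 180 and 177 TPM and ranked above the other eIF2 kinases. EIF2AK3, the endoplasmic reticulum kinase PERK, was lowest of the list at 18.5 and 21.2 TPM. GCN1, an activator of the amino acid sensor EIF2AK4, was at 88.2 and 75.4 TPM, with a log2 ratio of -0.32. EIF2A, a separate initiation factor, was at 105 and 180 TPM, and its log2 ratio of 0.64 became 0.12 once the trend was removed. Of the 9 genes, 7 were called, 3 as higher in replicate 1, beside 41.6% and 19.9% of all genes tested.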

How the data were processed

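RNA-Seq of 2 HEK293T libraries of 1 heat-shock group was analysed. The labels list the molecule as genomic DNA, while their protocol describes poly(A)+ RNA. The submitters' processing notes name Trimmomatic 0.36, STAR 2.6.1c and RSEM 1.3.1 with GRCh37.p13, whereas the methods name featureCounts. The deposited tables list, per gene, an expected count made by the authors, with multi-mapped reads shared. The deposited TPM and FPKM are scaled to effective length, and the 95% bounds deposited with TPM are a score for its uncertainty. A table of the whole series, with no replicate named, was used only as an alternative for the levels and their order. The posterior SD of each count is deposited as a signal in reads.

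Expected counts were rounded, scaled by TMM (edgeR 4.0.16) and compared between the libraries for genes with 10 or more counts in sum, by a two-sided exact binomial test doubling the smaller tail (SciPy 1.17.1), at an adjusted p of 0.05. Log2 ratios used a pseudocount of 0.5. The GC trend was the median log2 ratio in 50 classes of genes with 100 or more counts in sum. Names, positions and transcripts came from a GENCODE annotation of GRCh37, and 96.1% of identifiers were matched. The test was checked on simulated data. These held counting noise only and no trend on GC content, so the check does not cover such differences between the libraries. The 10 genes and the lists were chosen with earlier results of these data known. Of each list, the 3 highest genes, the lowest, those under 1 TPM in either library and the largest ratio in each direction (100 or more counts in sum) were named, with genes that overlap the 10 and their pseudogenes. Some genes that this rule or the marker lists would name are not reported here, but they remain in the counts and medians of their lists. Alternatives covered scaling (DESeq2 1.42.0 size factors), filters, thresholds, units and each replicate left out.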

Additional observations from a re-analysis of the deposited data

How the results depend on the processing

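No paired analysis was possible because 1 group is analysed here. All 10 genes were detected under each threshold and unit tried, except at a TPM of at least 5, with 9. Their summed TPM of 1963 was 1866 and 2061 without replicate 1 and without replicate 2, and it was 2710 when TPM was rescaled over protein-coding genes, which hold 72.9% and 72.0% of TPM. The order of the levels was the same under the 6 alternatives tried for it. With the same order in each library, leaving out a replicate, FPKM and TPM rescaled over protein-coding genes could not have changed it. Only the posterior mean TPM and the table of the whole series could have done so. The 8 calls between the libraries became 5 with the GC trend removed, 0 by edgeR's exact test when 0.1 was assumed as its biological coefficient of variation (smallest unadjusted p 0.0726), and 0 when a change of 1 or more on the log2 scale was required too. They were 6 with library totals, 9 with DESeq2 size factors and 7 with every gene above a count of 0 tested. Of all genes tested, 41.6% were called at first, 26.4% with the GC trend removed and 7.69% by edgeR's test. Shares of all genes under the other settings are not given here, so those counts are not read as particular to the 10 genes. The 50 calls among the 69 tested genes of the wider list became 4 by edgeR's test, beside 7.69% of all genes. They became 3 with the required change. DDIT4 changed from -0.06 to 0.17 with the GC trend removed. The cause of these changes was not tested, other than that the required change is an added condition. The 2 genes with TGATGNAA in RefSeq promoters became 1 with TGATGCAA, 1 with TGATGAAA, and 6 in the window of 1000 bases, which is longer and was chosen after seeing the data.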

Other observations

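The TPM of some of these genes lay outside the credibility bounds deposited with it. In replicate 1 this held for ATF4, PHGDH, PSAT1 and DDIT4, and in replicate 2 for ATF4, PSAT1 and DDIT4, beside 6.36% and 4.93% of detected protein-coding genes. For ATF4 the bounds were 1058 to 1083 in replicate 1, below its TPM of 1106, and 943 to 965 in replicate 2, below 982. The bounds surround a posterior mean, and for ATF4 that mean was 0.968 and 0.972 times the TPM.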
